A study of Mus musculus with 4 samples.

Results

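Brain endothelial cells take up iron from the blood through the transferrin receptor. The 10 genes described here cover that uptake and the transport, storage, export, release from heme and regulation of iron. In the sequenced mouse brain vascular cells, Tfrc, the gene of the transferrin receptor, was highest in capillary endothelial cells (EC), at 522 ± 219 CPM (counts per 1000000 UMIs, mean ± SD, n = 4 libraries). It was lower after chronic social defeat (CSD) than in home cage (HC) mice in capillary EC, with 318 and 352 CPM against 752 and 664 CPM. The ferritin genes Fth1 and Ftl1, which encode the iron store, gave fitted differences of 0.00 (SE 0.18) and 0.09 (SE 0.16) log2 in the same cells, with overlapping libraries. The 10 genes were chosen with their levels across cell classes and the difference of Tfrc between CSD and HC in the endothelium known, so both are given as descriptions without a test. All 10 symbols were found, of 31053 genes measured.

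The 4 libraries came from adult male C57BL/6 mice of 12 to 14 weeks, wild type by their label, each library being the pooled CD31 bead isolate of 4 brains, and were named CSD 1, CSD 2, HC 1 and HC 2. CSD mice lived for 14 days beside an aggressive CD-1 mouse and met it daily, while HC mice lived 14 days beside a CD-1 mouse from which a partition always kept them apart. The deposited values were unique molecular identifier (UMI) counts, in which each captured 3′ end counts once. A total of 14415 barcodes passed the limits of at least 500 UMIs, at least 250 genes and at most 25% mitochondrial UMIs, and 12946 of them were placed in a class by marker genes, none of which is one of the 10. A level in CPM is the UMI sum of 1 gene over the cells of a class in a library, scaled to the UMI total of that class. The libraries held 27297599 to 30361474 UMIs and 2553 to 4934 cells, and shared 0 to 9 cell barcodes with each other. CSD 2 stood apart, with 32.6% of its UMIs in the cells kept against 51.8% to 56.8% in the other 3. It stood apart in the UMI counts of capillary EC too. There the chi-square per degree of freedom was 7.81 between CSD 1 and CSD 2, and 8.18 and 8.99 between CSD 2 and HC 1 and HC 2. CSD 1 was nearer to HC 1 (3.44) and HC 2 (4.22) than to CSD 2, and the HC libraries differed by 2.56. With n = 2 libraries per condition an exact permutation test cannot go below p = 0.33, and p-values from the models measure the spread between pools of mice.

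The class names stand for marker gates. Of 61 markers kept out of the gates, 52 were highest in the class they mark, among them all 3 of the arterial and all 3 of the venous EC. For capillary EC it was 1 of 3 (Hmcn1), for astrocytes 1 of 3 and for the fibroblast class 0 of 3, so these names are the least certain. The venous check markers were Vcam1, Icam1 and Lcn2, which with the arterial Gkn3 were in the study's list of genes that differed with CSD. In venous EC Lcn2 was 950 and 1878 CPM in CSD and 30.1 and 0.00 CPM in HC. The venous name in HC therefore rests on the other markers. The gates gave 2917 capillary, 224 arterial and 107 venous EC, and left 1384 EC without a zone. The limits of the zone gate were set with Tfrc values in view, although Tfrc took no part in it.

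Iron circulates bound to transferrin, which the receptor on the blood side of the endothelium takes into the cell. Inside, Slc11a2 (DMT1) moves iron out of the endosome, ferritin made of heavy (Fth1) and light (Ftl1) chains stores it, and Slc40a1 (ferroportin) is the only known exporter, aided by the ferroxidase ceruloplasmin (Cp). Hmox1 frees iron from heme, and Trf encodes transferrin. Aco1 and Ireb2 encode the iron regulatory proteins, which bind hairpins called iron responsive elements in messenger RNA when iron is scarce. Binding in the 3′ UTR of Tfrc protects the transcript, and binding in the 5′ UTR of the ferritin and ferroportin transcripts blocks translation. A count of transcripts can therefore follow iron for Tfrc but says nothing of how much ferritin or ferroportin is made.

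These hairpins are shown because the Tfrc transcript carries them at its other end from the storage and export transcripts compared with it here. The search was for the letter C, any 5 bases, CAGTGN, and 5 bases that pair with the first 5 (A with T, G with C or T), on the sense strand of the UTRs in GENCODE M21 on GRCm38. In all, 160 of 21901 protein-coding genes (0.731%) held them in a UTR. Of the 10 genes, 4 did: Tfrc (chr16:32608920-32632794, plus strand) held 4 in its 3′ UTR, and Fth1 (chr19:9980598-9985098, plus strand), Ftl1 (chr7:45457944-45459884, minus strand) and Slc40a1 (chr1:45908068-45926523, minus strand) held 1 each in the 5′ UTR. Those of Tfrc lay at chr16:32631219-32631248, chr16:32631598-32631627, chr16:32631663-32631692 and chr16:32631710-32631739, called a to d here, that of Fth1 at chr19:9982732-9982761, that of Ftl1 at chr7:45459778-45459807 and that of Slc40a1 at chr1:45925464-45925493. Each is printed 5′ to 3′ as 30 DNA letters of its own strand, with the 6 loop bases in capitals.
Tfrc hairpin a: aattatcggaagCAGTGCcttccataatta
Tfrc hairpin b: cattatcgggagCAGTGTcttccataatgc
Tfrc hairpin c: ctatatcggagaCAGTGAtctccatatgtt
Tfrc hairpin d: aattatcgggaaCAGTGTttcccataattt
Fth1 hairpin: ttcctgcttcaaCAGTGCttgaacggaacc
Ftl1 hairpin: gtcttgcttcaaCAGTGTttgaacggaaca
Slc40a1 hairpin: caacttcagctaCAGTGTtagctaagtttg
Position by position, 26 of the 30 bases were identical between the Fth1 and Ftl1 windows, 18 to 25 among the 4 of Tfrc, and 9 to 13 between a ferritin and a Tfrc window. The Slc40a1 window shared 13 with each ferritin window and 13 to 16 with those of Tfrc, so the windows did not group by the end of the transcript. The search itself fixed the first C and the CAGTG in every window. No match by these letters says only that they are not there, and nothing of binding was measured.

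Tfrc marked the endothelium and was unevenly spread along it. In capillary EC it stood at 318 CPM in CSD 1, 352 CPM in CSD 2, 752 CPM in HC 1 and 664 CPM in HC 2, on 264, 476, 688 and 715 UMIs. Both HC libraries lay above both CSD libraries, with means of 708 CPM in HC and 335 CPM in CSD. The edgeR fit, which adds library scaling, put HC 2.03-fold above CSD (CSD minus HC −1.03 log2, SE 0.16). In arterial EC, where the receptor gene was low, the values were 45.0, 41.6, 161 and 114 CPM, from only 10, 4, 36 and 10 UMIs. The groups did not overlap there either (−1.71 log2, SE 0.40), and both CSD values lay within the range of free RNA. The part of free RNA in the arterial UMIs was put at 2.57% to 5.5%. In venous EC the values were 247 and 290 CPM in CSD against 489 and 281 CPM in HC, so the groups overlapped (−0.61 log2, SE 0.33). Without HC 1 that difference was −0.03 log2. Every CSD library was below every HC library in capillary and arterial EC, while in venous EC CSD 2 lay above HC 2. Over all 4674 EC the levels were 258 and 321 CPM in CSD and 567 and 578 CPM in HC (−0.92 log2, SE 0.16), and the EC of no zone gave 274 and 301 CPM against 458 and 534 CPM.

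**Figure D1:**
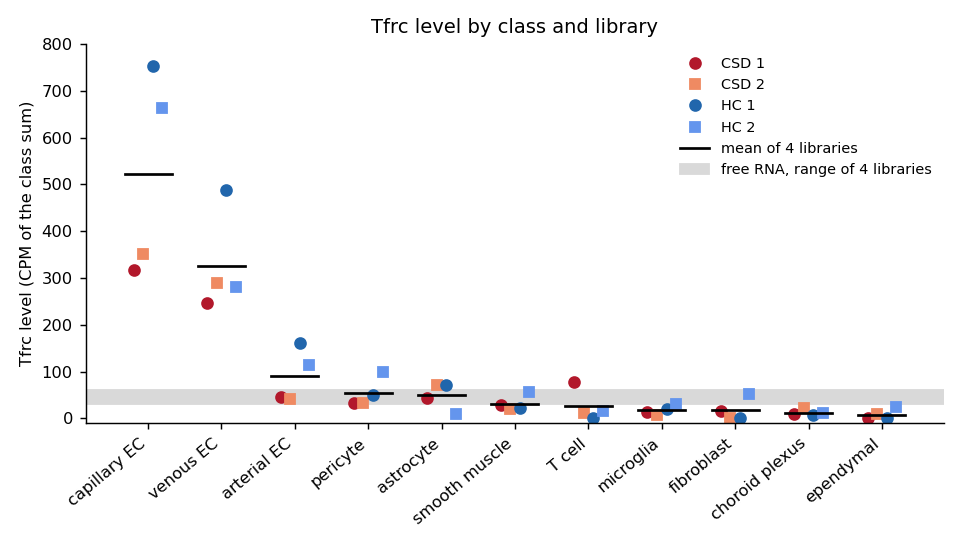
Tfrc level (CPM of the class sum, y axis) in the 11 classes with at least 10 cells in every library (x axis, ordered by mean), one point per library with red for CSD and blue for HC, a bar for the mean of 4 libraries, and a grey band for the range in free RNA. Capillary EC lead at 318 to 752 CPM, and most classes outside the endothelium lie in or under the band of 31 to 61.1 CPM.

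Of the 10 genes, 9 passed the filter on low counts in capillary EC, and Hmox1 did not. Tfrc was the 1 member past an adjusted p of 0.05 there, where 0.497% of 8450 genes tested were. The genes were chosen on this contrast in the endothelium. That Tfrc passed, at either an adjusted or an unadjusted p, is therefore no test of its difference. Nothing is read from that count or from the endothelial counts below. In arterial EC 0 of 5 members tested were past it (0.0347% of all genes), in venous EC 0 of 5 (0.915%) and over all EC 0 of 10 (0.112%) by edgeR. At an unadjusted p under 0.05 it was 1 member in each of these 3, beside 5.86%, 10.0% and 8.44% of all genes. That member was Tfrc in arterial EC and over all EC, but Cp, higher in CSD, in venous EC. DESeq2 called 0, 0 and 1 members, beside 1, 13 and 64 of all genes. The libraries of the 2 conditions did not overlap for 6 of the 9 members in capillary EC, against 39.6% of all genes tested. The median difference of the 9 was −0.33 log2 against −0.00 for all genes, with 5 lower and 4 higher in CSD. Trf counted among the lower, at 7.23 and 7.4 CPM in CSD and 10.9 and 19.5 CPM in HC, on 6 to 21 UMIs.

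The capillary libraries differed in other ways that were measured beside Tfrc. The median depth was 1177 and 1469 UMIs per cell in CSD and 1457 and 873 in HC, and the median mitochondrial share 7.17% and 8.19% against 7.76% and 5.85%. The summed level of 9 immediate-early genes, which mark cells activated by handling or signals, was 10907 and 15615 CPM in CSD and 8384 and 10310 CPM in HC. In 352 capillary EC the gate genes among these, Fos, Fosb, Jun, Junb, Egr1 and Ier2, made up at least 2% of UMIs. Within that range Tfrc was 290 and 280 CPM in CSD and 719 and 431 CPM in HC (−0.99 log2, SE 0.28). There 0.0378% of all genes were past the threshold, and 0 of 5 members. Outside that range the difference was −1.03 log2 (SE 0.18). The part of immediate-early activation in the Tfrc result was not tested. A total of 321 capillary EC lay between 1.5% and 2.5%, near the limit.
Red cells in the making also hold much transferrin receptor. The 10 erythroid markers summed to 170 and 277 CPM in CSD and 227 and 169 CPM in HC, with the defining markers Alas2 and Slc4a1 at 0 in all 4 libraries. The 12 capillary markers summed to 9468 and 10919 CPM in CSD against 10510 and 11199 CPM in HC. The 12 pericyte markers ran from 244 to 534 CPM and were highest in HC 2. Of the 21 marker lists summed, 3 were higher and 5 lower in both CSD libraries of capillary EC. The libraries of the conditions were apart for 39.6% of all genes tested there, so nothing is read from the count of lists. Among the lists apart, the 11 oligodendrocyte markers stood at 1286 and 1139 CPM in CSD and 791 and 872 CPM in HC. That list was also apart in arterial EC (2097 and 1206 against 979 and 949 CPM) and in venous EC (2297 and 1821 against 1007 and 1203 CPM). In each of these zones 7 of the 11 markers were at 0 in all 4 libraries, Mog, Mag and Opalin among them. The sums there rest on the remaining markers of the list. In venous EC 4 of the 21 lists were higher and 4 lower in both CSD libraries, and in arterial EC 4 and 3. The share of all genes apart was not computed in these zones, and nothing is read from these counts either. The zone markers themselves were among the lists apart. The 12 venous markers, Lcn2 included, summed to 8747 and 13245 CPM in CSD and 5186 and 4710 CPM in HC in venous EC. The 15 arterial markers summed to 12180 and 11256 CPM in CSD and 12516 and 18030 CPM in HC in arterial EC. The part of the erythroid, pericyte, oligodendrocyte and other lists in the Tfrc result was not tested.

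To set cells of unequal depth side by side, each was thinned to 1000 UMIs and shallower ones were left out, 238, 222, 153 and 658 capillary EC in CSD 1, CSD 2, HC 1 and HC 2. A Tfrc UMI was then seen in 24.5% (95% exact binomial interval 20.3% to 29.2%) of 379 capillary EC in CSD 1 and 28.4% (24.5% to 32.5%) of 515 in CSD 2. The share was 44.7% (39.5% to 49.9%) of 374 in HC 1 and 38.9% (34.0% to 44.0%) of 378 in HC 2. The intervals of the CSD libraries lay below those of the HC libraries, and cover counting error only. Before thinning the shares were 30.5% and 38.7% in CSD and 57.9% and 42.2% in HC. In microglia, taken as a background of free RNA, the thinned share was 1.08% and 0.911% in CSD and 2.02% and 1.95% in HC, at median depths of 1886, 4746, 2662 and 1854 UMIs. Other classes outside the endothelium reached higher. In CSD 1, CSD 2, HC 1 and HC 2, pericytes gave 0.00%, 3.33%, 6.52% and 11.4%, and smooth muscle 3.35%, 1.89%, 1.04% and 7.91%. In arterial EC the share was 4.62%, 0.00%, 7.69% and 9.52%, with intervals that all overlapped. These arterial shares lay within the range of the pericytes. In venous EC, with 13 to 29 cells a library, it was 9.52% and 27.8% in CSD and 20.7% and 7.69% in HC, so the higher and lower shares were not ordered by condition.

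**Figure D2:**
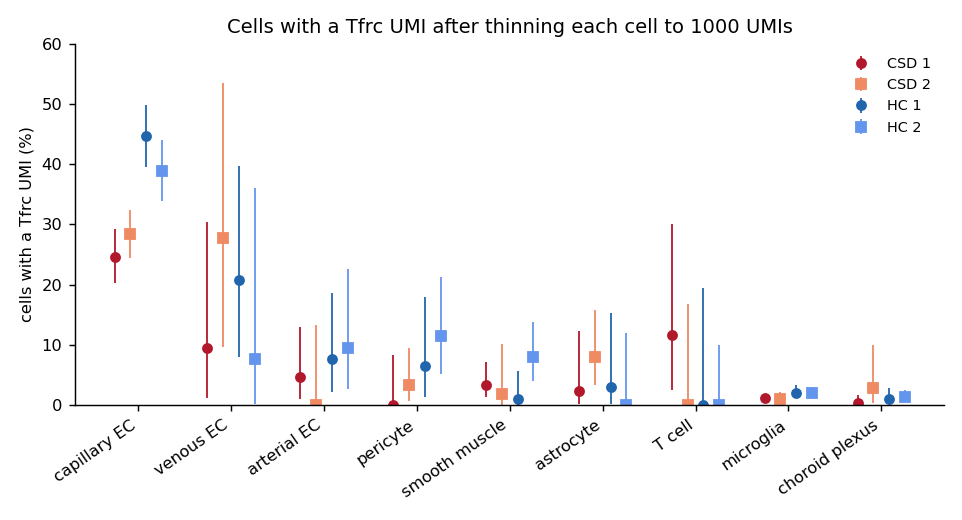
Share of cells with at least 1 Tfrc UMI after thinning each cell to 1000 UMIs (y axis, percent) by class (x axis), one point per library with its 95% exact binomial interval. Capillary EC show 24.5% and 28.4% in CSD against 44.7% and 38.9% in HC, while microglia stay at 2.02% or less and pericytes reach 11.4% in HC 2.

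In the 8 non-endothelial classes with at least 10 cells in every library, mean Tfrc was near or under the level of free RNA. Free RNA held 31, 50.8, 43.4 and 61.1 CPM in barcodes of at most 100 UMIs. The highest single pericyte library stood at 99.1 CPM. These are levels within free RNA, not its part in a class. By choroid plexus or microglia markers found in other classes, that part was put at 1.39% to 6.21% of UMIs in microglia. Capillary EC stood 11.2-fold above the mean free RNA level, venous EC 7.0-fold and arterial EC 1.94-fold, while pericytes were at 1.15-fold and microglia at 0.384-fold. The zone levels depended on the gate, and venous EC went from 326 to 83.8 CPM under the stricter gate and arterial EC from 90.5 to 23.9 CPM, below mean free RNA, with a zone gate on unscaled markers. In the order of class means, the ranges of capillary and venous EC overlapped, those of venous and arterial EC did not, and from arterial EC downward every neighbouring pair overlapped. Among small classes, 10 Tfrc UMIs in 42 B cells gave 134 CPM over the libraries (exact Poisson interval 64.1 to 246), and 5 in 15 erythroid cells gave 66.9 CPM (21.7 to 156). These intervals, and those given below for small classes, cover counting error of the pooled UMIs only, not the spread between cells or libraries.

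The exporter gene was high in the same zones. Slc40a1 was 301 and 302 CPM in CSD and 406 and 379 CPM in HC in capillary EC, with both HC libraries higher (−0.33 log2, SE 0.16), and the difference was 0.00 under a stricter gate. In venous EC the levels were 284, 299, 376 and 381 CPM, and in arterial EC 99.0, 156, 139 and 80.0 CPM, where the groups overlapped. Capillary and venous ranges overlapped with each other and lay above the arterial range. Microglia followed at 69.3 ± 9.10 CPM (SD, n = 4), above free RNA at 23.2 CPM, and border-associated macrophages, which clear red cells and debris at the brain's edge, gave 216 CPM (163 to 282) over 98 cells. In the choroid plexus it was 0.971 ± 0.690 CPM.

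Slc11a2, the endosomal transporter, was low everywhere, from 4.44 CPM in pericytes to 33.2 ± 11.1 CPM in microglia. In capillary EC it was 15.7 and 18.5 CPM in CSD and 10.9 and 14.9 CPM in HC, on 10 to 25 UMIs a library. Free RNA held 9.13 to 12.9 CPM, so the mean capillary level was 1.36-fold above it.

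**Figure D3:**
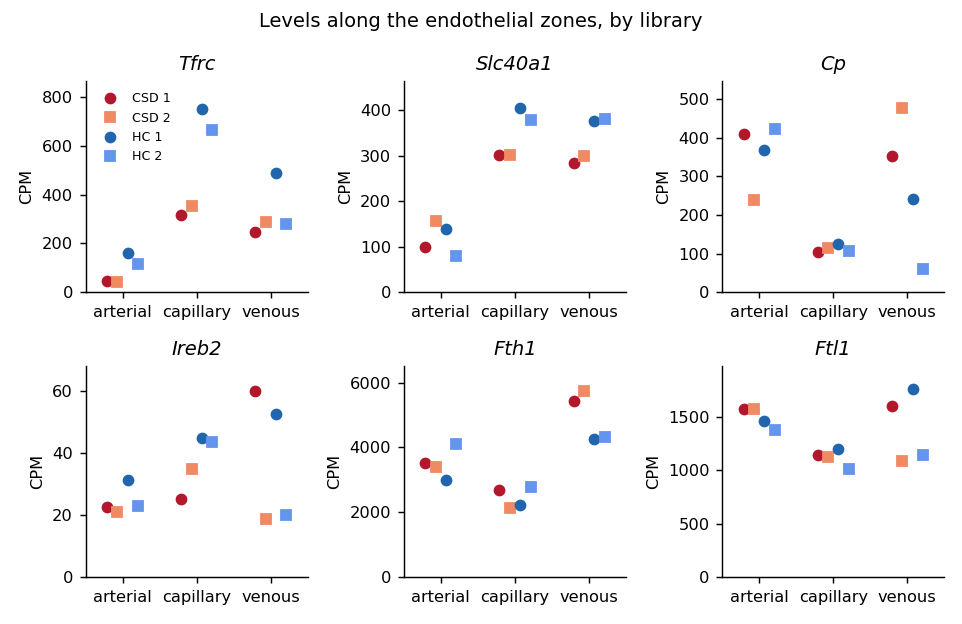
Levels (CPM, y axis from 0) of 6 iron handling genes in arterial, capillary and venous EC (x axis), one point per library. Tfrc and Slc40a1 are lowest in arterial EC, Cp in capillary EC is 105 to 124 CPM, below every arterial library, and Fth1 is highest in venous EC at 4262 to 5745 CPM.

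The ferritin genes gave the largest counts of the 10 in capillary EC. Fth1 was 2679 and 2129 CPM in CSD and 2228 and 2763 CPM in HC in capillary EC, with overlapping groups (0.00 log2, SE 0.18), and Ftl1 was 1145, 1128, 1201 and 1010 CPM (0.09 log2, SE 0.16). Fth1 was higher in venous EC, at 5425 and 5745 CPM in CSD and 4262 and 4330 CPM in HC, where the groups did not overlap (0.39 log2, SE 0.26). Its highest level was in oligodendrocytes, cells rich in iron, at 24430 CPM (exact Poisson interval 23520 to 25360) over 24 cells, with 2 to 11 a library. Free RNA held 6070 CPM of Fth1, more than the mean of 8 of the 11 classes, and its part in the lower levels was not tested. Ftl1 led in border-associated macrophages at 8945 CPM (8582 to 9321) and in microglia. The Ftl1 copy Ftl1-ps1 took 791 UMIs against 97294 for Ftl1, and reads that fit both could not be assigned to either.
In microglia 7 of the 10 genes were higher in both libraries numbered 1 than in both numbered 2, against 1 the other way (Trf), beside 37.2% and 18.0% of all microglial genes tested. In capillary EC it was 1 of 10 (Ftl1) and 0 of 10, beside 12.8% and 18.8%. Microglial Ftl1 split by library number rather than by condition, at 5172 and 5296 CPM in CSD 1 and HC 1 and 3059 and 3009 CPM in CSD 2 and HC 2. Hmox1 did the same there, with 139 and 96.8 CPM in the libraries numbered 1 and 50.8 and 42.4 CPM in those numbered 2. Over 2913 microglial genes the deviations of same-numbered libraries correlated at r = 0.72, against −0.03 to 0.14 in the other 10 classes. Free RNA showed the split for Hmox1 too, at 27.8 and 31.9 CPM in libraries numbered 1 and 9.70 and 12.7 CPM in the others. The labels do not say what the number marks, and its part in these levels was not tested.

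Hmox1, which opens heme, was highest in border-associated macrophages (220 CPM, 166 to 286), then in microglia (82.3 ± 44.9 CPM), the fibroblast class (61.4 ± 51.0 CPM, on 15 UMIs) and the choroid plexus (57.2 ± 12.1 CPM), and the ranges of these 3 overlapped from one to the next. Capillary EC held 7.92 CPM, under the 20.5 CPM of free RNA. Trf reached 4118 CPM (3750 to 4512) in oligodendrocytes and 1250 CPM (1117 to 1396) in border-associated macrophages, followed by the fibroblast class (595 to 2055 CPM), microglia (471 to 744 CPM) and the choroid plexus (213 to 345 CPM). In the endothelium it was listed at 7.45 to 11.3 CPM on average, 0.0683 to 0.103 of the free RNA level of 109 CPM. Cp, the ferroxidase, was highest in the fibroblast class (685 to 1534 CPM) and in pericytes (443 ± 44.2 CPM, n = 4). Its zones were ordered the other way from those of Tfrc, at 239 to 423 CPM in arterial EC and 105 to 124 CPM in capillary EC, with no overlap between these ranges. In venous EC Cp was 352 and 476 CPM in CSD and 241 and 60.1 CPM in HC (1.20 log2, SE 0.40), the lowest from 3 UMIs, and 2.79 log2 without HC 1.

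The regulators Aco1 and Ireb2 were low in every class. Ireb2 ran from 19.4 CPM in smooth muscle to 51.6 CPM in pericytes, and every neighbouring pair in that order overlapped. In capillary EC it was 25.3 and 34.8 CPM in CSD and 44.8 and 43.7 CPM in HC (−0.47 log2, SE 0.26), on 21 to 47 UMIs. Aco1 was 12.1, 11.1, 14.2 and 15.8 CPM there (−0.34 log2, SE 0.42), close to its free RNA level of 10.7 CPM.

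**Figure D4:**
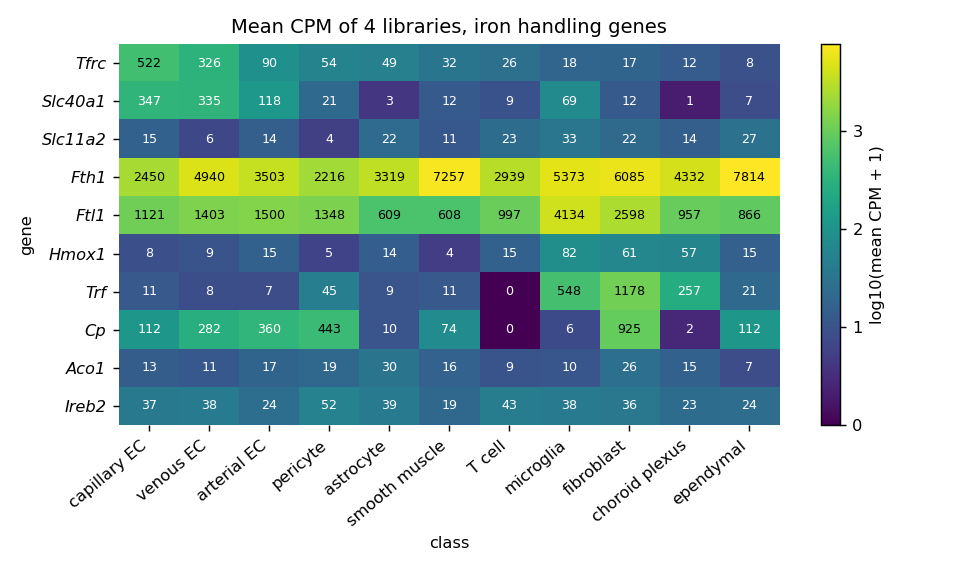
Mean CPM over 4 libraries of the 10 iron handling genes (rows) in 11 classes (columns), with colour for log10(mean CPM + 1) and the mean written in each cell. Tfrc and Slc40a1 peak in capillary and venous EC, Trf and Cp in the fibroblast class, and Ftl1 in microglia.

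The comparison of CSD with HC outside the endothelium was no part of the choice and was tested in 8 classes. Of 80 pairs of a gene and a class, 38 passed the filter on low counts. By edgeR's quasi-likelihood test 1 had an unadjusted p under 0.05, beside 1.51% of all genes in microglia to 6.98% in T cells. DESeq2 called 0 pairs, beside 0 to 4 of all genes in a class. At an adjusted p of 0.05 edgeR called 0 pairs. Of all genes tested, the share called was 0% in microglia, smooth muscle, fibroblast, ependymal and T cell classes, 0.0362% in pericytes, 0.0649% in astrocytes and 0.114% in the choroid plexus. These counts moved with the libraries used, from 0 to 78 genes in microglia and from 0 to 73 in T cells when CSD 1 was left out. The 1 pair was Tfrc in microglia, at 14.2 and 7.11 CPM in CSD and 20 and 30.3 CPM in HC (−1.20 log2, SE 0.37, edgeR adjusted p = 1.0). Both HC libraries were higher. Each level lay under that of free RNA in its own library. Free RNA itself was put at 1.39% to 6.21% of the microglial UMIs. Free RNA held 31 and 50.8 CPM in CSD and 43.4 and 61.1 CPM in HC, where the conditions overlapped. The 16 endothelial markers summed to 271 and 162 CPM in CSD and 305 and 602 CPM in HC in microglia. Of 21 marker lists there, 4 were lower in both CSD libraries, the endothelial list among them, and 0 were higher. The share of all microglial genes apart was not computed, so nothing is read from this count. Subtraction of free RNA was among the 14 alternatives given below, and with it 0 of 9826 microglial genes tested were called. Beyond that, the part of free RNA and of endothelial transcripts in the microglial Tfrc difference was not tested. In the choroid plexus Tfrc was 9.48, 22.0, 7.55 and 10.9 CPM, with overlapping groups (0.56 log2, SE 0.29, edgeR adjusted p = 1.0). Without CSD 1, with CSD 2 alone against both HC libraries, these pairs were called, Tfrc in microglia at −1.69 log2 (adjusted p = 0.0172) and in the choroid plexus at 1.26 log2 (adjusted p = 0.0143). Over all 14 alternatives edgeR and DESeq2 gave adjusted p of 0.0172 to 1.0 and 0.0143 to 1.0. In smooth muscle the receptor gene was 28.8, 19.2, 22.4 and 57.1 CPM (−0.59 log2, SE 0.44, edgeR adjusted p = 1.0). In pericytes Tfrc was under the filter on low counts and not tested. Its mean there was 32.8 CPM in CSD and 74.2 CPM in HC, and the libraries of the conditions did not overlap. Over the 10 microglial genes the median difference was 0.00 log2, as over all genes.

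**Figure D5:**
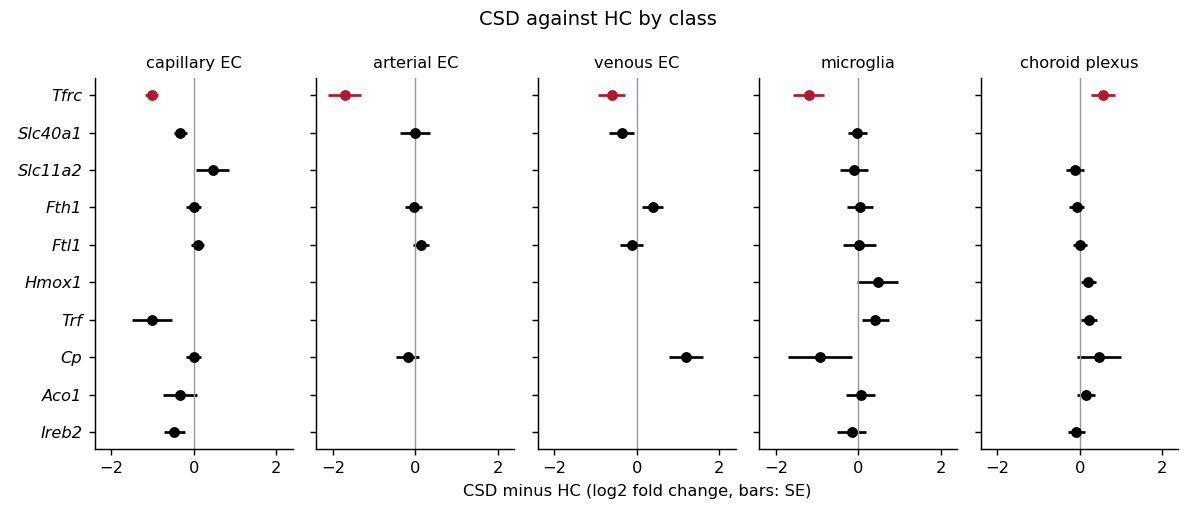
CSD minus HC (log2 fold change, x axis, bars for the SE of the edgeR fit, n = 2 libraries per condition) for the 10 genes (y axis) in 5 classes; genes under the filter on low counts have no point, and Tfrc is red. Tfrc lies at −1.03 in capillary, −1.71 in arterial and −0.61 in venous EC, while the ferritin genes lie within 0.39 of 0 in the EC.

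Other genes of iron handling were taken from a list of 47, of which 46 were found. Over 13 classes, nested ones included, 248 pairs were tested and 2 were called, both Lcn2, which encodes lipocalin 2, a protein that binds iron-carrying siderophores and is induced in inflamed vessels. In venous EC Lcn2 was 950 and 1878 CPM in CSD and 30.1 and 0.00 CPM in HC (5.95 log2, SE 0.55, edgeR adjusted p = 8.51e-06), on 127, 201, 4 and 0 UMIs. Over all EC it was 81.2 and 116 CPM against 2.77 and 1.74 CPM (5.46 log2, SE 0.33, edgeR adjusted p = 0.0006). Both CSD libraries were higher than both HC libraries in each. Lcn2 was also 1 of the 3 markers used to check the venous gate. It stood in the study's list of genes that differed with CSD in these libraries, known when the 47 were listed. Its 2 calls are therefore no independent test.
The 5 listed genes highest in capillary EC were Id1, a target of bone morphogenetic protein signalling (1860 CPM), Epas1, a hypoxia factor whose transcript carries an iron responsive element (944 CPM), Snx3, a sorting protein for the receptor (366 CPM), Alas1, the first enzyme of heme synthesis (339 CPM), and Pcbp2, an iron chaperone (288 CPM). None of the 31 listed genes tested in capillary EC was called by edgeR or DESeq2. Of these 31, 6 had an unadjusted edgeR p under 0.05, a larger share than the 9.10% of all genes there. The list was made with earlier results of these data known, so nothing is read from that count. Alas1 was 380 and 371 CPM in CSD and 306 and 301 CPM in HC (0.36 log2, SE 0.16, edgeR adjusted p = 0.493), and Snx3 346 and 312 CPM against 411 and 396 CPM (−0.24 log2, SE 0.16, edgeR adjusted p = 0.706). Their median difference in capillary EC was 0.02 log2, against −0.00 for all genes.

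The pattern over the 11 classes was compared with that of 7248 other genes by Pearson's r of log2(CPM + 10), a description across classes that share libraries. Most like Tfrc were Proser2 (r = 0.96), Col4a3bp, which carries ceramide between membranes (r = 0.96), and Slc1a1, a glutamate transporter (r = 0.96). Most like Slc40a1 were Spns2, the sphingosine phosphate exporter of endothelium (r = 0.98), Elk3 (r = 0.97) and Rnf144b (r = 0.96). For Cp they were Gpx7, Gm26802 and Med6 (r = 0.96 to 0.94), for Trf Tmem37, Ctsb and Mmp2 (r = 0.90 each), and for Ftl1 Tbpl1, Hexa and Tfe3 (r = 0.92 to 0.88). For Hmox1 they were Bscl2, Sdf2l1 and Hspa5 (r = 0.93 to 0.90) and for Fth1 Cd9, Eif1a and Npnt (r = 0.85 to 0.78). For the low genes they were Id2, Celf2 and Cmip for Slc11a2 (r = 0.84 to 0.81) and Zfp871, Mapk1ip1l and Fubp1 for Ireb2 (r = 0.90 to 0.88). The highest class means of Slc11a2 and Ireb2 were 33.2 and 51.6 CPM, so their likeness rests on low levels.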

How the data were processed

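Single cells of 4 pooled libraries, 2 per condition, were measured with 10x Genomics 3′ v3.1 chemistry. The authors deposited raw UMI counts of all barcodes, unfiltered, from Cell Ranger (4.0 in the submitters' processing notes, 3.1.0 in the file headers), on GRCm38/mm10. The study's limits on UMIs, genes and mitochondrial share were applied, its complexity limit was an alternative, and more cells passed than the study kept. No doublet caller was run, and 1469 of 14415 cells with markers of several classes, or too few of any, were left unassigned. Sequence searches used GENCODE M21. UMIs were summed per library and class and fitted with edgeR 4.0.16 (filterByExpr, TMM, quasi-likelihood test, Benjamini-Hochberg adjustment over all genes of a class, two-sided), with each class of at least 10 cells per library on its own. DESeq2 1.42.0 was an alternative. The scripts were tested on simulated data. Other alternatives were no TMM, no filter on low counts, each library left out, a replicate block, other cell limits and gates, and subtraction of free RNA. The members and the lists were chosen with earlier results of these data known. Named were all 10 members, other iron genes that were called or among the 5 highest in capillary EC, and the 3 genes most like each member, those of Aco1 not being reported here. The replicate numbers shared by CSD and HC libraries were not taken as pairs, since no label says what they mark.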

Additional observations from a re-analysis of the deposited data

Results flagged for a closer look

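Within classes, 71 sets of 4 libraries with at least 20 UMIs of a member were examined for a single library far from the others, and chance alone would mark about 1 in 20. A total of 3 were marked by Dixon's limit for 4 samples. Slc40a1 in smooth muscle stood at 25.1 CPM in HC 2, against 5.98 to 7.86 CPM in the other libraries. Trf in microglia stood at 744 CPM in CSD 2, against 471 to 489 CPM. Cp in the fibroblast class stood at 1534 CPM in CSD 2, against 685 to 768 CPM.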

How the results depend on the processing

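Tfrc was lower in CSD under every alternative run, with log2 differences of −1.25 to −0.92 in capillary EC (16 alternatives), −1.86 to −1.38 in arterial EC (11), −0.88 to −0.03 in venous EC (11) and −1.06 to −0.79 over all EC (14). Leaving out 1 library at a time gave −1.12 to −0.92, −1.86 to −1.38, −0.88 to −0.03 and −1.06 to −0.79. The stricter gate moved capillary EC to −1.25 and the difference in the thinned share from −15.3 to −26.8 percentage points, and the mean level in venous EC from 326 to 83.8 CPM. The zone gate on unscaled markers, chosen after the data were seen, gave 23.9 CPM in arterial EC, against 90.5 CPM. Leaving out 1 library, the mean level ran from 445 to 590 CPM in capillary, 67.0 to 107 CPM in arterial and 272 to 353 CPM in venous EC. With the replicate block the Tfrc differences were −1.02, −1.71, −0.58 and −0.92, and members called outside the endothelium stayed at 0 (Tfrc in microglia −1.18 log2, adjusted p = 0.0751, over alternatives 0.0172 to 1.0). Deviations of same-numbered libraries correlated at 0.72 in microglia and −0.03 to 0.14 elsewhere. All genes called in capillary EC numbered 42, and 137 with the block, 145 without the filter on low counts, 20 with the stricter gate, 21 at 10% mitochondrial UMIs and 3 to 374 with 1 library left out. Venous EC gave 20, and 69 with the block, 33 without the filter, 13 by DESeq2, 6 at 10% mitochondrial UMIs and 1 to 67 with 1 library left out, and all EC 11, 103, 52, 64, 10 and 6 to 546, 33 with the stricter gate, 20 at 1000 UMIs and 6 without TMM. Arterial EC gave 1, 14 without the filter, 0 with the unscaled zone gate and 1 to 38 with 1 library left out. Outside the endothelium the block moved all genes called from 0 to 46 in microglia, 0 to 6 in T cells, 1 to 5 in pericytes, 0 to 1 in smooth muscle and 1 to 0 in astrocytes. Leaving out 1 library gave 0 to 78 in microglia, 3 to 73 in T cells, 0 to 53 in the choroid plexus (13 with all 4, and 4 by DESeq2), 0 to 45 in ependymal cells, 5 to 12 in pericytes, 0 to 12 in smooth muscle, 1 to 9 in fibroblasts and 0 to 2 in astrocytes. Members called outside the endothelium numbered 0 to 2 with 1 library left out, the 2 without CSD 1. Called pairs of other iron genes numbered 2, and 2 to 9 with 1 library left out (9 without CSD 1, 4 without CSD 2). They numbered 1 by DESeq2, which gave Lcn2 no adjusted p over all EC, 1 at 1000 UMIs, 1 with the stricter gate and 1 with the unscaled zone gate. Tfrc in smooth muscle ran from −1.20 to 0.12 with 1 library left out, turning at 0.12 without HC 2, and in the choroid plexus from 0.00 without CSD 2 to 1.26. A lone library was assumed to vary like the other group. Classes with under 10 cells in a library could not be fitted, as venous EC at 1000 UMIs and with the unscaled zone gate, and arterial and venous EC with the stricter gate. Arterial EC rest on 4 to 36 Tfrc UMIs a library, and venous EC on 14 to 65. The causes of these changes were not tested.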
